A study of Mus musculus with 4 samples.

Results

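Semaphorins are secreted or membrane-bound guidance proteins, and plexins are the cell-surface receptors that bind them. The 8 genes described here are 5 ligands (Sema3a, Sema3c, Sema3d, Sema3g and Sema6d) and 3 receptors (Plxnd1, Plxna2 and Plxna4). They were taken by gene symbol from the 4 deposited count matrices, and are 8 of 32285 genes in each. Their unique molecular identifiers (UMIs, 1 per captured transcript) were summed per library within cell classes that were gated on other genes.

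The study profiled ventricles of mouse embryos at E14.5 by droplet single-cell RNA-seq, to ask how loss of the transcription factor Ets1 in the endothelium affects the developing ventricle. The control group was Tie2Cre; Ets1 fl/+ and the Ets1 eKO group was Tie2Cre; Ets1 fl/fl. Each group had 2 libraries, each library pooled 3 ventricles, and all came from untreated embryos of both sexes on a C57BL/6 background. Control embryos also carried Cre and 1 floxed allele, so in cells that have or once had Tie2 promoter activity the comparison is between 1 and 2 floxed alleles. That promoter is active in endothelium and in some blood cells, and mesenchyme of the cushions that descends from endocardium inherits the recombined allele. The labels give batch 1 for all 4 libraries. Since a library is a pool, the tests below measure the spread between pools and not between single embryos.

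Control 1 held 12641 barcodes and 124140739 UMIs, with a median of 8630 UMIs per barcode. Control 2 held 7949 barcodes and 76931208 UMIs, with a median of 8369. Ets1 eKO 1 held 10010 barcodes and 95131419 UMIs, with a median of 8222. Ets1 eKO 2 had the most barcodes and the shallowest cells, with 14951 barcodes, 102872196 UMIs and a median of 5632. Pairs of libraries shared 19 to 47 barcode sequences, at most 0.44% of the smaller library.

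The pools also differed in sex, as read from library sums in CPM (the UMIs of a gene per 1000000 UMIs of the sum). Xist, which is expressed from the inactive X chromosome of female cells, stood at 0.0886 CPM in control 1, 299 in control 2, 251 in Ets1 eKO 1 and 479 in Ets1 eKO 2. The Y-linked gene Uty stood at 75.8 CPM in control 1, 41.9 in control 2, 25.4 in Ets1 eKO 1 and 0.00972 in Ets1 eKO 2. Control 1 thus carried almost no female signal and Ets1 eKO 2 almost no male signal, while the other pools were mixed. Calls below for Ets1, Sema3a and Sema5a are also given without each of these libraries, and calls of marker genes are not.

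Class 3 semaphorins (the Sema3 genes) are secreted, and most of them bind a neuropilin (Nrp1 or Nrp2) that pairs with a plexin of the A or D type. Class 6 semaphorins such as Sema6d span the membrane and bind A-type plexins directly. In the heart these signals are known for guiding vessel growth, for the patterning of the outflow tract by neural crest cells and for exchange between the endocardium and the myocardium beneath it. Plxnd1 is the plexin of endothelial cells through which semaphorin signals restrain and direct vessels.

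Cells were gated by the share of their UMIs that fell in marker lists of each lineage, and endothelial cells were then split by coronary, mural endocardial and valve endocardial markers. Of 45551 barcodes, 41563 passed the cell filters. The gates gave 4002 cells of mural endocardium (mEndo-like), 586 of valve endocardium (vEndo-like) and 1550 of coronary vascular endothelium (cvEC-like). They also gave 21066 cardiomyocyte-like, 3636 cushion-like, 3005 fibroblast-like, 851 epicardial-like, 857 immune-like and 283 vessel mural-like cells. The 8 pan-endothelial markers were the gate list itself, so their detection in each endothelial class was fixed by the gate and is no check of it. They were led by Emcn in mEndo-like, Flt1 in vEndo-like and Cdh5 in cvEC-like cells. These classes are ranges of a score: 10.2% of mEndo-like, 20.6% of vEndo-like and 3.42% of cvEC-like cells lay within a factor of 1.25 of the threshold of their own list. Cells near the thresholds of other lists were not counted. The valve gate set no upper limit on mural endocardial markers, which summed to 2074 CPM in vEndo-like and 3980 CPM in mEndo-like cells. The fewest cells per library were 121 for vEndo-like and 219 for cvEC-like cells.

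Promoter sequences are shown for 4 of the 7 members that have a promoter entry, because Ets1 belongs to a family of factors that bind DNA around the letters GGAA. The sequences are from RefSeq in build GRCm38.p6, 250 bases before to 50 bases after the annotated start, printed 5′ to 3′ on the strand of the gene. Capitals mark GGAA and its reverse complement TTCC. The Sema3a window is chr5:13396534-13396833 on the plus strand, the Sema3d window chr5:12382916-12383215 on the plus strand, the Sema3g window chr14:31217623-31217922 on the plus strand and the Plxnd1 window chr6:115994956-115995255 the Plxnd1 window chr6:115994956-115995255 on the minus strand. The Sema3a window lies at a start well inside the gene as annotated in GENCODE, not at its first one.Sema3a: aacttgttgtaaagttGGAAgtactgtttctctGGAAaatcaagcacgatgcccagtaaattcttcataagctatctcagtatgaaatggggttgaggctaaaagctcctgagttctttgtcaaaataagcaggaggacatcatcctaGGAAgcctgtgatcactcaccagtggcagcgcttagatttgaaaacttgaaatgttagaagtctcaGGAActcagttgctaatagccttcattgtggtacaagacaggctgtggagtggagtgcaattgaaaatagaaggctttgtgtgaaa
Sema3d: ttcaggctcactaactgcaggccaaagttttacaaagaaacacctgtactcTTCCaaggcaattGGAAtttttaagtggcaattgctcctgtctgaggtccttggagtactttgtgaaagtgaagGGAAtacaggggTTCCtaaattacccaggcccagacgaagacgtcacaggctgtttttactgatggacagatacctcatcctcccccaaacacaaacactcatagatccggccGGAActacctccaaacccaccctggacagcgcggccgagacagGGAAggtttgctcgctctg
Sema3g: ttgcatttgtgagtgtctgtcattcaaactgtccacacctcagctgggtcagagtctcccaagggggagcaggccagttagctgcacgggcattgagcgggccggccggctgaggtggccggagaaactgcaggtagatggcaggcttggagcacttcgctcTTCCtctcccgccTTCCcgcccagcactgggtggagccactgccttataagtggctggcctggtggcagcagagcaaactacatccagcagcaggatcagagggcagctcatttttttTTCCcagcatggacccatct
Plxnd1: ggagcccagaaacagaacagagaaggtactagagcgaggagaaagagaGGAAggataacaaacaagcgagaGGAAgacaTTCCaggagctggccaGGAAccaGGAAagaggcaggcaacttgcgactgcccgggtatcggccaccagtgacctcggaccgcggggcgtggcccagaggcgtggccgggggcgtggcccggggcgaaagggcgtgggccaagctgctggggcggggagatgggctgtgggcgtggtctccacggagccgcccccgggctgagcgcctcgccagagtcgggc
Sema3a held 4 matches, Sema3d 6, Sema3g 3 and Plxnd1 5, counting both strands. Sema3d also held 1 match of the longer motif CCGGAA, which reads TTCCGG on the other strand and contains GGAA. Of 8 members, 7 matched a promoter entry by symbol, with 8 entries in all because Sema6d has 2, and Plxna4 had none. The remaining counts of GGAA were 1 for Sema3c, 0 for Plxna2 and 3 and 2 for the Sema6d entries. GGAA occurred in 96.0% of all 32851 promoters of this length, with a median of 3 matches, and CCGGAA in 14.9%. A match is a description of the letters and not of binding.

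Ets1 itself was measured first. In mEndo-like cells it stood at 281 CPM in control 1, 261 in control 2, 124 in Ets1 eKO 1 and 97.8 in Ets1 eKO 2. Both eKO libraries lay well below both controls, with a log2 fold change of -1.24 (SE 0.14, edgeR adjusted p = 0.00161). In vEndo-like cells the values were 285 and 297 CPM in controls, against 117 and 109 CPM in eKO libraries, a log2 fold change of -1.34 (SE 0.17, edgeR adjusted p = 0.00346). In cvEC-like cells they were 370 and 323 CPM against 174 and 124 CPM, a log2 fold change of -1.13 (SE 0.18, edgeR adjusted p = 0.0181), which missed the threshold of 0.05 under a looser gate (adjusted p = 0.0780, with 1.75e-13 to 0.0780 over the alternatives). Ets1 thus fell in the 3 endothelial classes and remained measurable there. Without control 1 the log2 fold changes were -1.19 in mEndo-like, -1.37 in vEndo-like and -1.04 in cvEC-like cells, and without Ets1 eKO 2 they were -1.08, -1.30 and -0.92, each past the threshold. In cushion-like cells it stood at 84.3 and 75.7 CPM against 49.3 and 43.4 CPM (log2 fold change -0.71, SE 0.13, edgeR adjusted p = 0.0788, with 0.000229 to 0.204 over the alternatives, 4 of 12 past the threshold). The floxed exons are not given in the sources used here, and 3' tags need not come from the deleted part, so remaining counts do not measure remaining protein.

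Levels of the ligands differed widely between classes. Each level below is the CPM of the class sum, given as the mean ± SD over 4 libraries, and neighbours in an order are called apart only where the ranges of their libraries do not overlap. Among the 9 classes, Sema3a, the prototype repellent of growing axons, was highest in mEndo-like cells at 191 ± 22.4 CPM and in vEndo-like cells at 183 ± 30.8 CPM. These neighbours were not apart from each other, but both were apart from the other 7 classes. Next came epicardial-like cells at 60.2 ± 9.84 CPM, cardiomyocyte-like cells at 48.2 ± 10.0 and vessel mural-like cells at 38.4 ± 10.8, which were not apart from one neighbour to the next. The cvEC-like cells followed at 17.96 ± 4.48 CPM, with cushion-like cells at 17.1 ± 8.92 and fibroblast-like cells at 10.2 ± 4.65, again not apart. The immune-like level of 1.69 ± 1.95 CPM was the lowest, on 4 UMIs in each of 2 libraries and 0 in the others. Endocardium and coronary endothelium thus sat at opposite ends of the endothelial range, with a ratio of 10.6 between the highest and lowest endothelial mean.

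Among cardiomyocytes, Sema3a followed the inner layer of the wall. In trabecular cardiomyocyte-like cells it stood at 172 CPM in control 1, 279 in control 2, 209 in Ets1 eKO 1 and 175 in Ets1 eKO 2. In compact cardiomyocyte-like cells it stood at 15.7, 18.5, 14.8 and 17.6 CPM in the same libraries. Every trabecular value exceeded every compact value, and within each layer the groups overlapped. The trabecular mean of 209 ± 49.7 CPM was above that of mEndo-like cells (191 ± 22.4 CPM), with overlapping ranges. Sema3a was thus not highest in endocardium alone once cardiomyocytes were split. Atrioventricular canal cells were low, at 12.1 ± 3.68 CPM.

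Sema3d, a secreted ligand known from the patterning of pulmonary and coronary veins, was highest in the epicardium. It stood at 573 ± 106 CPM in epicardial-like cells, apart from fibroblast-like cells at 117 ± 10.2 CPM, which were apart from the rest. Vessel mural-like cells at 51.9 ± 17.5 CPM and cushion-like cells at 43.5 ± 7.98 were not apart from each other. The remaining classes, endothelial ones included, had means of 0.396 to 8.06 CPM. Sema3c, a ligand known for guiding neural crest cells into the outflow tract, was also highest in epicardial-like cells, at 79.1 ± 11.6 CPM and apart from the next class. Cushion-like cells at 24.0 ± 5.22 CPM, cardiomyocyte-like cells at 16.5 ± 6.39 and fibroblast-like cells at 9.67 ± 3.82 followed without being apart from their neighbours. Within cardiomyocytes, Sema3c reached 66.5 ± 23.1 CPM in atrioventricular canal cells, against 10.5 ± 4.03 in compact and 9.42 ± 1.44 in trabecular cells, and the lowest atrioventricular canal library (42.0 CPM) was above the highest of the other layers (16.2 CPM). In mEndo-like and cvEC-like cells Sema3c was near the immune-like level, at 1.59 ± 0.465 and 1.14 ± 0.464 CPM.

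Sema3g, a secreted ligand of arterial endothelium, marked coronary endothelium and was scarce elsewhere. The cvEC-like level was 22.1 ± 6.68 CPM, apart from vEndo-like cells at 3.58 ± 2.46 CPM, and no further neighbours were apart. Immune-like cells held no UMI of Sema3g, and the largest library, with 0 of 336 cells, allows a share of up to 0.893% with a UMI. Sema3g had at most 3 UMIs per library in fibroblast-like and cushion-like sums. Within cvEC-like cells, the 181 cells with arterial markers had 89.8 CPM in control 1, 107 in control 2, 69.8 in Ets1 eKO 1 and 33.4 in Ets1 eKO 2. The other 1369 cvEC-like cells had 14.7, 18.1, 13.6 and 13.1 CPM. Every arterial value was above every other value, and Ets1 eKO 2 was the lowest arterial library, on only 15 UMIs. Sema6d, the membrane-bound ligand of the set and known from ventricular trabeculation, was more widely spread. It stood at 266 ± 40.9 CPM in epicardial-like, 164 ± 21.1 in cvEC-like and 111 ± 17.1 in mEndo-like cells, with the epicardial-like level apart from the cvEC-like and the cvEC-like apart from the mEndo-like. The vEndo-like level of 50.7 ± 3.90 CPM was not apart from the cushion-like level of 52.6 ± 5.27 CPM, and the immune-like level of 18.3 ± 5.47 CPM was the lowest and apart.

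**Figure D1:**
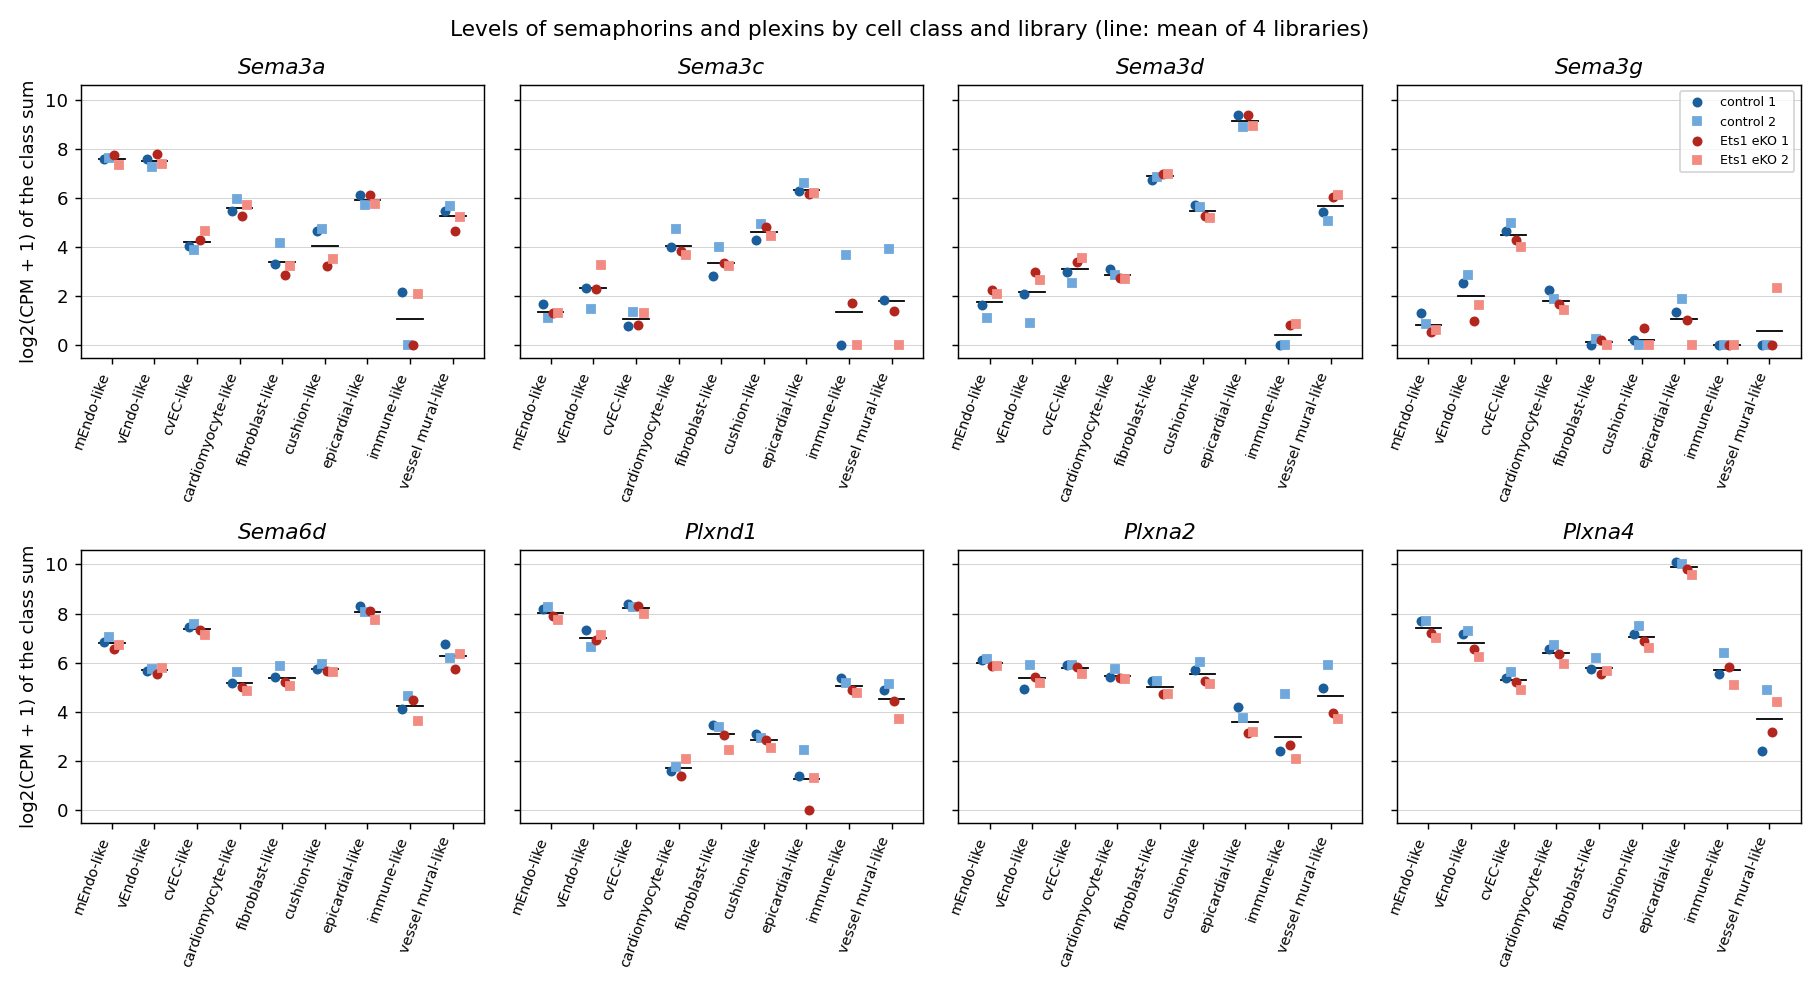
Each panel shows 1 gene, with log2(CPM + 1) of the class sum on the vertical axis, 9 cell classes on the horizontal axis, 1 point per library and a line at the mean of 4 libraries. Sema3a is highest in mEndo-like and vEndo-like cells, Sema3c, Sema3d, Sema6d and Plxna4 in epicardial-like cells, Sema3g in cvEC-like cells and Plxnd1 in cvEC-like and mEndo-like cells.

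Receptors showed another division. Plxnd1, the endothelial plexin, stood at 303 ± 37.4 CPM in cvEC-like and 261 ± 41.4 CPM in mEndo-like cells, which were not apart, and at 129 ± 25.6 CPM in vEndo-like cells, which were apart from both. Outside the endothelium it stood at 32.7 ± 6.72 CPM in immune-like cells and 23.8 ± 9.39 in vessel mural-like cells, and at 1.89 to 7.81 CPM in the other classes. Plxna2, a receptor of class 3 and class 6 ligands, declined gradually from class to class, from 63.1 ± 6.93 CPM in mEndo-like and 54.8 ± 6.46 in cvEC-like cells down to 9.55 ± 10.5 in immune-like cells. No neighbours in its order were apart, although the ends of the order were, and within cardiomyocytes every compact library (58.6 CPM or more) was above every trabecular library (52.1 CPM or less). Plxna4, a receptor for Sema3a with neuropilin 1 and for Sema6 ligands, peaked in epicardial-like cells at 950 ± 147 CPM, apart from all other classes. It followed at 172 ± 40.1 CPM in mEndo-like, 134 ± 36.6 in cushion-like, 116 ± 39.3 in vEndo-like and 85.1 ± 18.5 in cardiomyocyte-like cells, none apart from its neighbour. Coronary endothelium was among the lowest classes for Plxna4, with 38.5 ± 8.16 CPM in cvEC-like cells, where every library lay below every mEndo-like library.

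Levels of different genes were compared only per kilobase of exon (CPM per kb, from the union of annotated exons). On that scale the most abundant of 20 semaphorins was Sema6a in each endothelial class, at 20.8 in mEndo-like, 32.2 in vEndo-like and 20.3 in cvEC-like cells. Among the members, Sema3a came next in mEndo-like cells at 13.8 and in vEndo-like cells at 13.2 CPM per kb, and Sema6d came next in cvEC-like cells at 15.6 CPM per kb. Sema3a led in cardiomyocyte-like cells at 3.47 CPM per kb, close to Sema6d at 3.37. Sema3d led in epicardial-like cells at 66.6 CPM per kb and in fibroblast-like cells at 13.7, Sema5a led in cushion-like cells at 7.66 and Sema4d in immune-like cells at 8.11. Of 9 plexins, Plxnd1 led in mEndo-like, vEndo-like and cvEC-like cells at 35.7, 17.7 and 41.5 CPM per kb. Plxna4 led in epicardial-like cells at 67.4, in cushion-like cells at 9.50 and in cardiomyocyte-like cells at 6.03 CPM per kb, and Plxnb2 led in fibroblast-like cells at 5.14 and in immune-like cells at 11.2. Nrp1 exceeded Nrp2 in all 8 tested classes, from 10.1 CPM per kb in cushion-like to 46.4 in mEndo-like cells, and Nrp2 was highest in cvEC-like cells at 16.9 CPM per kb. No test was made of these orders. In plain CPM some leads turn: Sema3a (191) is then above Sema6a (183) in mEndo-like cells, and Sema5a leads the semaphorins in cardiomyocyte-like (58.1) and fibroblast-like cells (149). Plxna4 (54.8 CPM) is then above Plxnb2 (39.7 CPM) in fibroblast-like cells. With 3' tags the count of a transcript depends less on its length than with full-length reads, so the per-kilobase order is approximate.

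The comparison of Ets1 eKO with control libraries asked whether the ligands or receptors changed when endothelial Ets1 was lost. In the 3 endothelial classes edgeR called 0 members. In mEndo-like cells 7 of 8 members passed the filter on low counts and 3 had an unadjusted p under 0.05 (2467 of all 12851 genes tested), while 2.3% of all genes were called in either direction, and DESeq2 called 1 member, beside 2.37% of all genes. In vEndo-like cells 5 members passed the filter and 1 had an unadjusted p under 0.05 (795 of all 9444 genes), beside 0.222% of all genes called, and DESeq2 called 0 members and the same share of all genes. In cvEC-like cells 7 members passed and 3 had an unadjusted p under 0.05 (1456 of all 11410 genes), beside 0.719% of all genes called, and DESeq2 called 0 members and 0.561% of all genes. The median log2 fold change of the tested members was -0.22 in mEndo-like, 0.00 in vEndo-like and -0.13 in cvEC-like cells, against 0.00, 0.01 and 0.01 for all genes tested. These counts depended on single libraries: without Ets1 eKO 1, edgeR called 1 member in mEndo-like cells (Plxna4), 1 in vEndo-like cells (Plxna4) and 2 in cvEC-like cells (Sema3a and Sema3g). That fit also called more of all genes, 5.38%, 0.569% and 7.71% in the same order.

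Outside the endothelium edgeR called 1 member in cushion-like cells, where 7 members passed the filter, 4 had an unadjusted p under 0.05 (1574 of all 13035 genes) and 0.361% of all genes were called, and DESeq2 also called 1, beside 1.04% of all genes. For cardiomyocyte-like cells edgeR called 0 of 8 tested members and 0% of 16427 genes (1700 at an unadjusted p under 0.05, 23 called by DESeq2), and 4 members had an unadjusted p under 0.05, with 0 members called by DESeq2. For fibroblast-like cells edgeR called 0 of 7 and 0% of 12934 genes (1153 at an unadjusted p under 0.05, 15 called by DESeq2), and 3 members had an unadjusted p under 0.05, with 0 members called by DESeq2. For epicardial-like cells edgeR called 0 of 6 beside 0.215% of 10234 genes (817 at an unadjusted p under 0.05), and 1 member had an unadjusted p under 0.05, with 0 members called by DESeq2. For immune-like cells edgeR called 0 of 3 beside 0.121% of 9060 genes (477 at an unadjusted p under 0.05), and 0 members had an unadjusted p under 0.05, with 0 members called by DESeq2. Leaving out 1 library changed 3 of these zero counts. Cardiomyocyte-like cells had 2 members called without Ets1 eKO 1 (Plxna4 and Plxnd1) and 1 without control 1 (Sema3c), fibroblast-like cells had 1 without control 1 (Sema3a) and immune-like cells had 1 without control 1 (Plxna2). Of all genes, the same fits called 10.3% and 0.302% in cardiomyocyte-like, 1.4% in fibroblast-like and 1.33% in immune-like cells.

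Among the ligands, Sema3a showed no separation of the groups by CPM in mural endocardium. In mEndo-like cells it stood at 193 CPM in control 1, 194 in control 2, 215 in Ets1 eKO 1 and 161 in Ets1 eKO 2. The eKO libraries lay on either side of the controls, and the log2 fold change was 0.00 (SE 0.15, edgeR adjusted p = 0.990). In vEndo-like cells the values were 191 and 151 CPM in controls, against 222 and 168 CPM in eKO libraries, which overlap (log2 fold change 0.21, SE 0.19, edgeR adjusted p = 0.815). In cvEC-like cells they were 15.5 and 13.7 CPM in controls, against 18.7 and 23.9 CPM in eKO libraries. Both eKO libraries were above both controls there, but the log2 fold change of 0.62 (SE 0.21) did not pass the test (edgeR adjusted p = 0.256, with 0.0220 to 0.947 over the alternatives, the lowest without Ets1 eKO 1).

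Sema3g in cvEC-like cells stood at 24.3 CPM in control 1, 30.3 in control 2, 18.7 in Ets1 eKO 1 and 15.03 in Ets1 eKO 2. Both eKO libraries lay below both controls, with a log2 fold change of -0.60 (SE 0.20, edgeR adjusted p = 0.253, with 0.0309 to 0.947 over the alternatives, the lowest without Ets1 eKO 1). It did not pass the filter in mEndo-like or vEndo-like cells. The 5 arterial markers of cvEC-like cells summed to 374 and 340 CPM against 300 and 344 CPM, which overlap, led by Sox17, with 5 tested, 1 down and none at 0. The marker that fell was Gja5, at 44.4 and 40.5 CPM against 24.01 and 19.5 CPM. The part of arterial cells in the Sema3g values was not tested. Sema3d had few endothelial UMIs: in cvEC-like cells 7.03 and 4.79 CPM in controls, against 9.61 and 10.8 CPM in eKO libraries (log2 fold change 0.82, SE 0.28, edgeR adjusted p = 0.279), and in mEndo-like cells 2.13 and 1.16 CPM against 3.71 and 3.22 CPM (log2 fold change 1.07, SE 0.40, edgeR adjusted p = 0.185). The groups did not overlap in either class, on 7 to 51 UMIs per library. Sema6d in mEndo-like cells stood at 114 and 133 CPM in controls, against 92.3 and 105 CPM in eKO libraries (log2 fold change -0.28, SE 0.14, edgeR adjusted p = 0.301). The groups did not overlap there, nor in cvEC-like cells, where the log2 fold change was -0.18 (SE 0.14, edgeR adjusted p = 0.621). Sema3c was tested only in mEndo-like cells among the endothelial classes, on 7 to 18 UMIs per library, with a log2 fold change of -0.20 and an SE of 0.47.

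**Figure D2:**
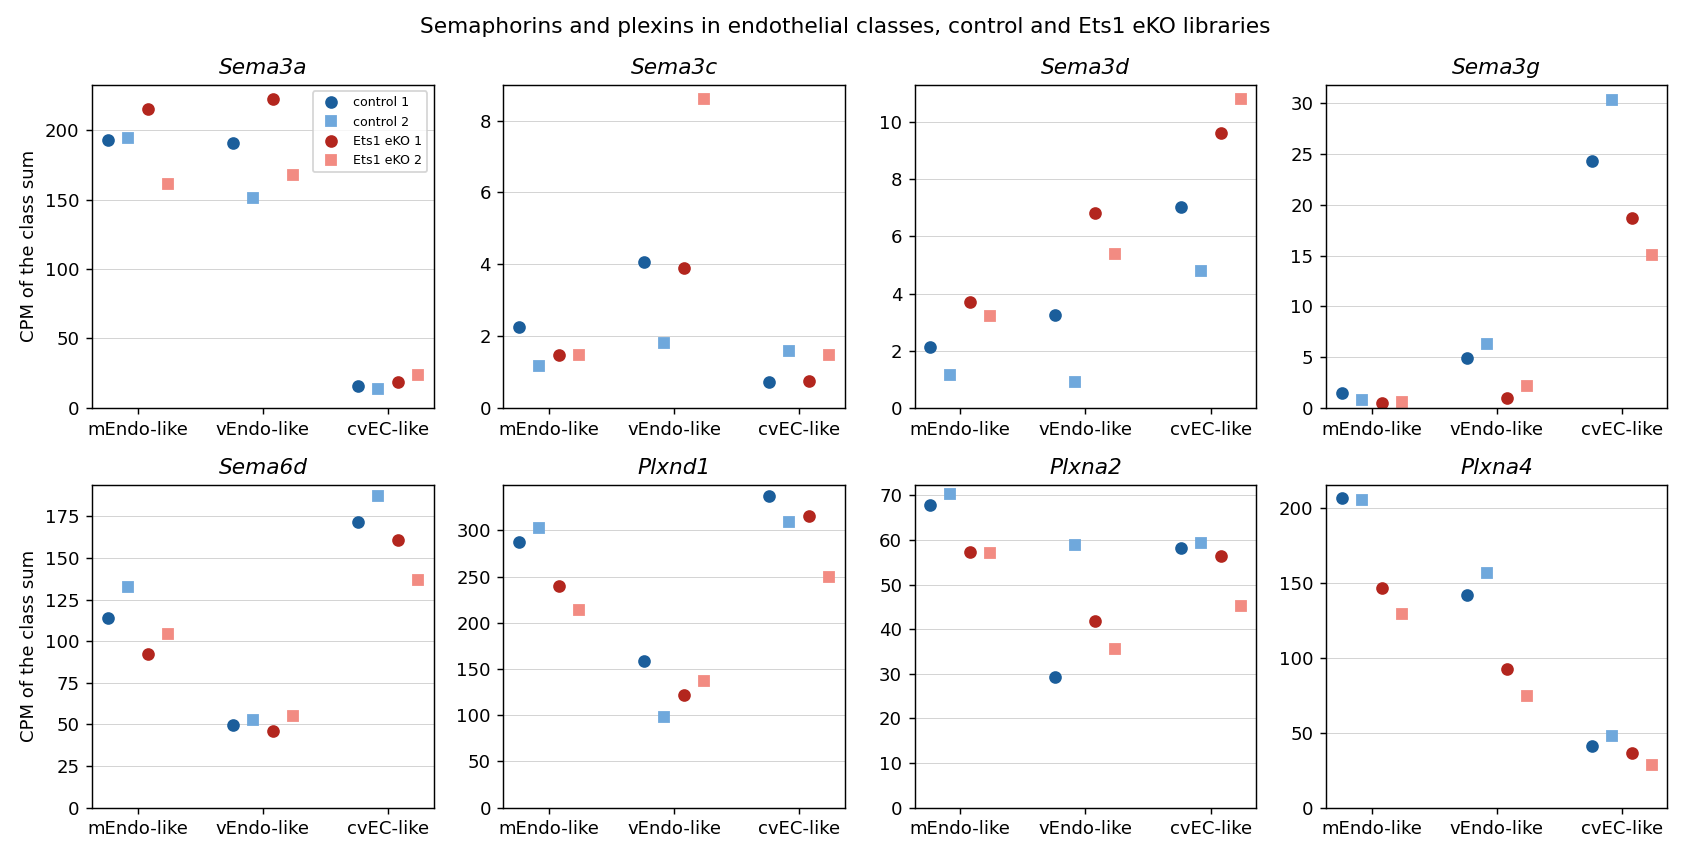
Each panel shows 1 gene, with CPM of the class sum on a vertical axis that starts at 0, the 3 endothelial classes on the horizontal axis and 1 point per library, controls in blue and eKO libraries in red. Plxna4 points of eKO libraries sit below control points in each class, from 206.6 and 205.6 CPM to 146.5 and 128.9 CPM in mEndo-like cells, while Sema3a points of mEndo-like cells overlap.

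Among the receptors, Plxna4 came closest to a call in the endothelium. In mEndo-like cells it stood at 206.6 CPM in control 1, 205.6 in control 2, 146.5 in Ets1 eKO 1 and 128.9 in Ets1 eKO 2. The controls were almost equal and both eKO libraries lay below them. The log2 fold change of -0.53 (SE 0.12) narrowly missed the threshold with edgeR (adjusted p = 0.0533), and the adjusted p ran from 0.00667 to 0.173 over 12 alternatives, 6 of which passed, DESeq2 among them (0.0374) and the fit with the replicate number as a block (0.0202). All 12 alternatives gave a negative log2 fold change. A block that crosses the replicate numbers, added after the data were seen, passed as well. The 2 blocks pair the libraries in opposite ways, and the labels give no pairing. They also called 6.96% and 7.06% of all genes, against 2.3% in the main fit, so their passes are not read as support. The summed level of 4 mural endocardial markers of this class was also lower, at 4448 and 4328 CPM in controls, against 3743 and 3401 CPM in eKO libraries, led by Tmem108, with 0 of 4 called and none at 0. The sums did not overlap, as is the case for 51.4% of all genes in this class. Coronary and mesenchyme sums were higher in both eKO libraries, as given further on with Sema5a. The sums were not tested, and 1 of 5 and 3 of 8 tested markers were called up. The part of these markers in the Plxna4 result was not tested. In vEndo-like cells Plxna4 stood at 142 and 157 CPM in controls, against 92.5 and 74.2 CPM in eKO libraries. Again the groups did not overlap, with a log2 fold change of -0.81 (SE 0.18, edgeR adjusted p = 0.108, with 0.00160 to 0.737 over the alternatives, 3 of 12 past the threshold). In vEndo-like cells the summed mesenchyme markers were also lower, at 795 and 777 CPM against 666 and 641 CPM, with 1 called up. Those of Tcf21-type fibroblasts were 177 and 199 CPM against 116 and 133 CPM. Those of cycling cells were 564 and 641 CPM against 405 and 467 CPM. Cardiomyocyte, compact, vessel mural, epicardial and erythroid sums were higher without overlap. The part of these markers was not tested. In cvEC-like cells Plxna4 was low, at 40.9 and 47.9 CPM against 36.7 and 28.4 CPM (log2 fold change -0.36, SE 0.17, edgeR adjusted p = 0.409). All 8 tested classes come from the same 4 libraries, so their signs are not independent. In each class 48.2% to 49.7% of all genes had a log2 fold change below 0. The share of genes below 0 in all 8 classes was not computed. The log2 fold change of Plxna4 was below 0 in all 8 tested classes, inside the endothelium and outside it. In cushion-like cells it stood at 143 and 180 CPM in controls, against 117 and 95.01 CPM in eKO libraries (log2 fold change -0.53, SE 0.15, edgeR adjusted p = 0.219, with 0.00815 to 0.894 over the alternatives, 2 of 12 past the threshold). The log2 fold change was -0.36 in cardiomyocyte-like (SE 0.15, edgeR adjusted p = 0.464, with 0.0205 to 1.00 over the alternatives, 1 of 12 past the threshold), -0.28 in epicardial-like (SE 0.18, edgeR adjusted p = 0.733), -0.28 in fibroblast-like (SE 0.16, edgeR adjusted p = 0.628) and -0.45 in immune-like cells (SE 0.32, edgeR adjusted p = 0.996). The groups overlapped only in immune-like cells, and the shares of all genes without overlap are given below for each class. Leaving out 1 library moved these values far: they ran from -0.53 to -0.19 in cvEC-like, -0.56 to -0.18 in cardiomyocyte-like, -0.41 to -0.16 in epicardial-like, -0.47 to -0.068 in fibroblast-like and -0.87 to -0.00052 in immune-like cells.

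Plxnd1 in mEndo-like cells stood at 287 CPM in control 1, 303 in control 2, 239 in Ets1 eKO 1 and 214 in Ets1 eKO 2. Both eKO libraries were lower than both controls, but the log2 fold change of -0.33 (SE 0.13) did not pass (edgeR adjusted p = 0.189, with 0.0923 to 0.646 over the alternatives). In vEndo-like cells the values of 158 and 97.7 CPM in controls, against 122 and 138 CPM in eKO libraries overlapped (log2 fold change 0.03, SE 0.22), and in cvEC-like cells 338 and 310 CPM overlapped 315 and 250 CPM (log2 fold change -0.11, SE 0.16). Plxna2 stood at 67.8 and 70.3 CPM in mEndo-like controls and 57.4 and 57.02 CPM in eKO libraries (log2 fold change -0.22, SE 0.13, edgeR adjusted p = 0.364). It stood at 50.6 and 65.1 CPM in cushion-like controls and 36.7 and 34.5 CPM in eKO libraries (log2 fold change -0.63, SE 0.15, edgeR adjusted p = 0.140, with 0.00318 to 0.788 over the alternatives). Groups of Plxna2 did not overlap in either class, as is the case for 51.4% of all genes in mEndo-like and 44.7% in cushion-like cells.

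Groups that do not overlap are common in these libraries. In mEndo-like cells 5 of 7 tested members had groups that did not overlap, beside 51.4% of all genes. In vEndo-like cells 1 of 5 did (Plxna4), beside 38.7%, and in cvEC-like cells 6 of 7 did, beside 45.7%. In cushion-like cells 6 of 7 did, beside 44.7%, and in cardiomyocyte-like cells 6 of 8 did, beside 48.4%. In fibroblast-like cells 6 of 7 did, beside 43.5%. In epicardial-like cells 3 of 6 did, beside 39.4%, and in immune-like cells 1 of 3 did, beside 32.9%. The members are read beside these shares, and nothing further is drawn from a separation of the 4 libraries.

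**Figure D3:**
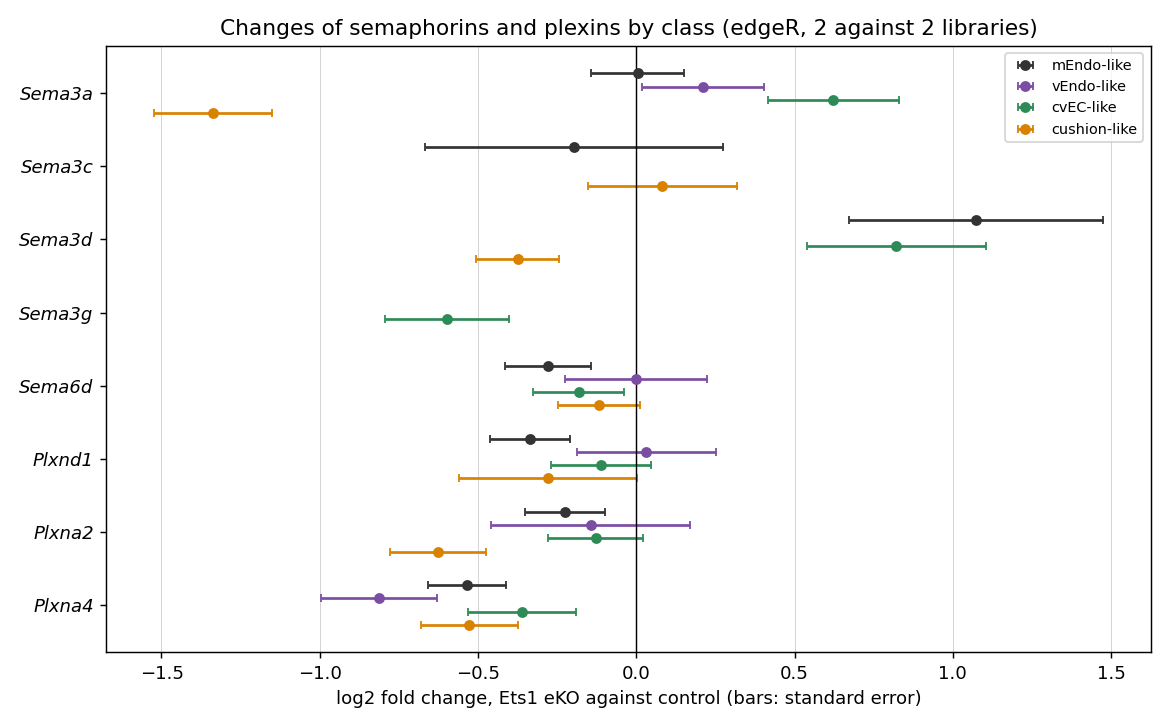
Log2 fold change of Ets1 eKO against control (horizontal axis) for each member that passed the filter in mEndo-like, vEndo-like, cvEC-like and cushion-like cells, with bars for 1 standard error from edgeR on 2 against 2 libraries. Sema3a in cushion-like cells, at -1.34, is the only point past the threshold, and the 4 Plxna4 points lie between -0.81 and -0.36.

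Whether the effect differed between endothelial classes was tested directly, with the library as a term. For cvEC-like minus mEndo-like cells edgeR called 0 members, with 1.6% of all genes called. The lowest p of a member was that of Sema3a, with a difference of 0.60 in log2 fold change (SE 0.21, edgeR adjusted p = 0.201). That difference passed with no filter (edgeR adjusted p = 0.0492). It was 0.995 without Ets1 eKO 1 and 0.203 without Ets1 eKO 2. For vEndo-like minus mEndo-like cells 0 members were called by edgeR, beside 0.854% of all genes, and for vEndo-like minus cvEC-like cells 0, beside 0.594%. The Plxna4 difference was -0.28 (SE 0.16, edgeR adjusted p = 0.662) between vEndo-like and mEndo-like cells. It was 0.15 (SE 0.14, edgeR adjusted p = 0.777) between cvEC-like and mEndo-like cells. Leaving out 1 library gave -0.38 to -0.22 and 0.055 to 0.26 in the same order. With an unadjusted p under 0.05 there was 1 member for cvEC-like minus mEndo-like (Sema3a), beside 1512 of all 13074 genes. There were 0 for vEndo-like minus mEndo-like, beside 1146 of 12524, and 1 for vEndo-like minus cvEC-like cells (Plxna4, -0.46, SE 0.21), beside 991 of 11451. DESeq2 was not run on these differences.

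Shares of cells with a UMI were compared after each cell was thinned to 2000 UMIs, which left out 21 to 104 mEndo-like cells per library. For Plxna4 in mEndo-like cells the share was 29.2% in control 1 (exact 95% binomial interval 26.3 to 32.2), 32.3% in control 2 (28.8 to 36.0), 23.5% in Ets1 eKO 1 (20.7 to 26.6) and 20.1% in Ets1 eKO 2 (18.02 to 22.3). Both eKO libraries were below both controls, by 8.91 percentage points in the mean (exact permutation p = 0.333, two-sided, the smallest that 2 against 2 libraries allow). In vEndo-like cells the mean share of Plxna4 was 23.2% in controls and 10.9% in eKO libraries. Before thinning, the mEndo-like shares were 62.7% and 43.3%. Immune-like cells, with lower median depths (3403.5 to 6493 UMIs, against 4242 to 7474.5 in mEndo-like cells), had 12.4% and 7.57% for Plxna4. These immune-like values are means after thinning, of control and eKO libraries in that order. The vEndo-like eKO share of 10.9% lies above the immune-like eKO mean and below the immune-like control mean, and is not read further.

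Plxnd1 was found in 41.9% of control and 34.9% of eKO mEndo-like cells at the same depth, and in 0.356% and 0.453% of cardiomyocyte-like cells, which should lack it. Before thinning the mEndo-like shares were 80.7% and 65.6%. The vEndo-like share of Plxnd1 was 16.6% in controls and 23.6% in eKO libraries, but 13.2% and 13.5% at 1000 UMIs per cell and 55.2% and 45.8% before thinning. The order thus turned with depth and the CPM overlapped, so no change is read from it. Sema3a was found in 25.2% and 22.6% of mEndo-like cells, in 2.76% and 1.58% of cushion-like cells and in 0.610% and 0.195% of immune-like cells. Before thinning the Sema3a shares were 51.5% and 44.4% in mEndo-like and 7.34% and 3.99% in cushion-like cells. The mEndo-like groups of Sema3a did not overlap at 2000 or 1000 UMIs per cell (16.3% and 13.7% at 1000) but overlapped before thinning. Sema6d was found in 22.0% and 17.6% of mEndo-like cells (52.4% and 39.4% before thinning) and in 3.69% and 2.74% of immune-like cells. The intervals and shares carry counting error only.

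**Figure D4:**
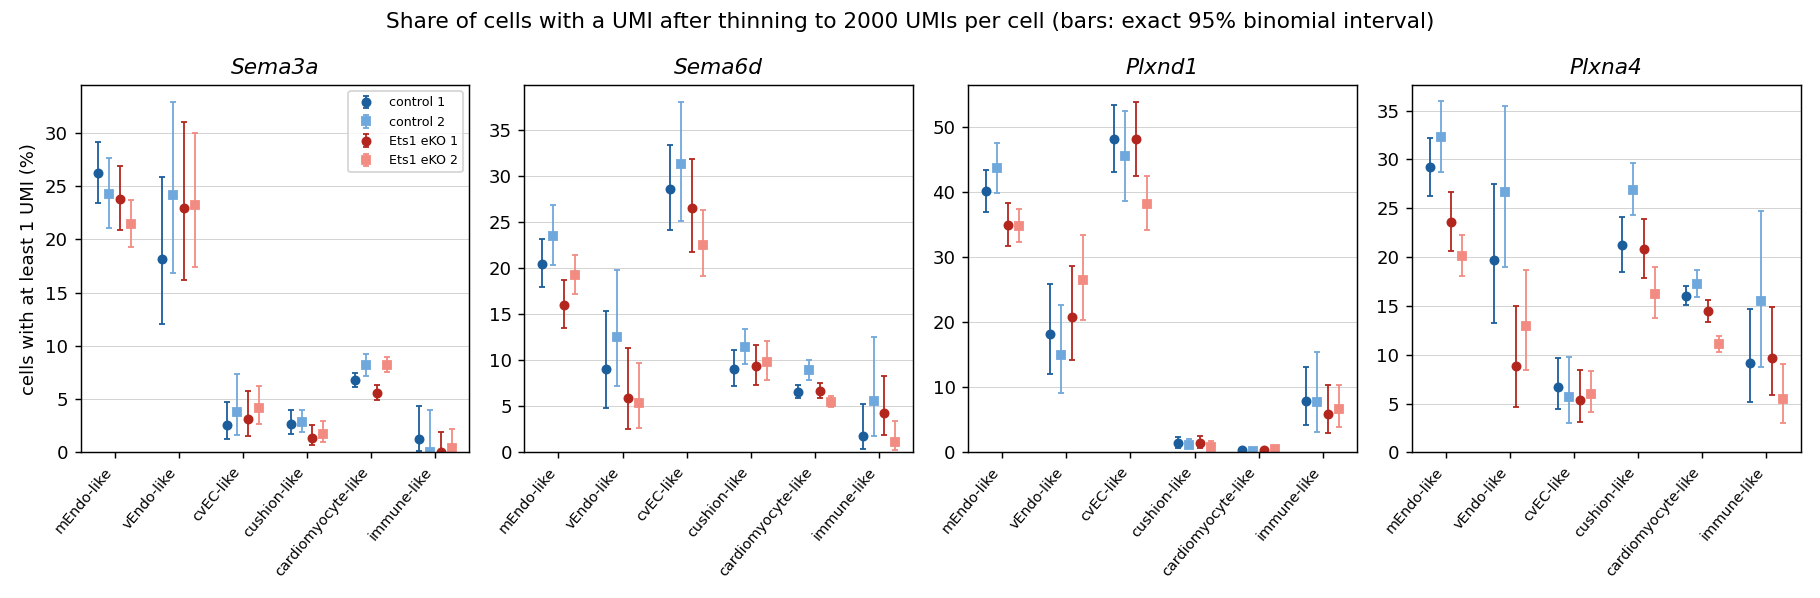
Share of cells with at least 1 UMI of a gene after thinning to 2000 UMIs per cell (vertical axis, percent) in 6 cell classes (horizontal axis), with 1 point per library and bars for the exact 95% binomial interval. Plxna4 shares of eKO libraries lie below those of controls in mEndo-like and vEndo-like cells, and Plxnd1 is near 0 in cardiomyocyte-like cells.

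The only member that passed the test was Sema3a in cushion-like cells, mesenchyme of the endocardial cushions marked by Sox9. It stood at 24.2 CPM in control 1 (145 UMIs), 25.4 in control 2 (199 UMIs), 8.49 in Ets1 eKO 1 (41 UMIs) and 10.3 in Ets1 eKO 2 (35 UMIs). Both eKO libraries lay far below both controls, and Sema3a fell by 1.34 on the log2 scale (SE 0.19, edgeR adjusted p = 0.0316). It passed in 11 of 12 alternatives, with an adjusted p of 5.79e-08 to 0.0573. The exception was the fit without control 2, with a log2 fold change of -1.32 and an edgeR adjusted p of 0.0573. Without control 1, the library with almost no female signal, the log2 fold change was -1.35 (edgeR adjusted p = 0.0189), and without Ets1 eKO 2, the shallow library, it was -1.46 (edgeR adjusted p = 0.0129).

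Markers of other cells were read beside this fall. The summed level of 4 cushion markers was 1682 and 1681 CPM in controls, against 1532 and 1608 CPM in eKO libraries, led by Sox9, with 4 of 4 tested and 0 called. The 8 endothelial markers summed to 62.5 and 46.4 CPM in controls, against 41.0 and 63.7 CPM in eKO libraries, with 7 tested and 0 called, and none of the 8 was at 0. The 8 cardiomyocyte markers summed to 1478 and 999 CPM against 1366 and 1745 CPM, led by Tpm1, with 0 of 8 called. The endothelial and cardiomyocyte sums overlapped between the groups, and the cushion sums were slightly lower in the eKO libraries. Endocardial markers, from the classes where Sema3a is highest, were also lower without overlap. Groups of 44.7% of all genes in this class did not overlap, in either direction. The 4 mural endocardial markers summed to 648 and 745 CPM against 568 and 546 CPM, led by Cdh11, with 0 of 4 called. The 5 valve endocardial markers summed to 139 and 126 CPM against 117 and 110 CPM, led by Nfatc1, with 4 tested and 0 called. The 6 vessel mural markers, of a class with 38.4 CPM of Sema3a, summed to 162 and 161 CPM against 153 and 117 CPM. The 4 markers of Tcf21-type fibroblasts summed to 1272 and 1184 CPM against 1143 and 1156 CPM. Immune sums were higher, at 2.84 and 4.20 CPM against 6.01 and 10.9 CPM. Arterial sums were higher as well, at 35.2 and 35.7 CPM against 41.2 and 48.4 CPM. Venous, lymphatic and erythroid sums were also higher without overlap, and no marker of these lists was called. No marker of these lists was at 0, and the part of such cells in the Sema3a result was not tested. In fibroblast-like cells, which also came from the mesenchyme gate, Sema3a stood at 8.997 and 16.9 CPM against 6.28 and 8.43 CPM (log2 fold change -0.70, SE 0.32, edgeR adjusted p = 0.561, with 0.0243 to 1.00 over the alternatives), and leaving out 1 library gave -1.11 to -0.23. The difference between fibroblast-like and cushion-like cells was not tested.

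The wider list held 46 genes, 20 semaphorins, 9 plexins, 2 neuropilins and 15 partners of plexin signalling, the members included. In mEndo-like cells 35 passed the filter, 1 rose and 0 fell with edgeR, DESeq2 called 3, and 13 had an unadjusted p under 0.05. Of all 12851 genes there, edgeR called 2.3%, DESeq2 called 304, and 2467 had an unadjusted p under 0.05. In vEndo-like cells 25 passed and in cvEC-like cells 31 passed, with 0 called by edgeR or DESeq2 in either class and 2 and 7 at an unadjusted p under 0.05, beside 0.222% and 0.719% of all genes called by edgeR and 795 of 9444 and 1456 of 11410 at an unadjusted p under 0.05. In cushion-like cells 38 passed, 1 fell, which was Sema3a, and 10 had an unadjusted p under 0.05, beside 0.361% of all genes called and 1574 of 13035 at an unadjusted p under 0.05. Of the plexins alone, 8 of 9 were tested in mEndo-like cells and 6 had a log2 fold change below 0, with a median of -0.17, and of 12 tested semaphorins 8 were below 0, with a median of -0.24, beside 49.7% of all genes below 0. The 13 tested partners in the cell and at its membrane had a median of -0.02 there.

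The gene that rose was Sema5a, a membrane-bound semaphorin with thrombospondin repeats. In mEndo-like cells it stood at 6.26 CPM in control 1 (50 UMIs), 4.30 in control 2 (26 UMIs), 18.1 in Ets1 eKO 1 (122 UMIs) and 14.8 in Ets1 eKO 2 (110 UMIs). Both eKO libraries were above both controls, with a log2 fold change of 1.66 (SE 0.24, edgeR adjusted p = 0.00630). All 12 alternatives passed, with log2 fold changes of 1.13 to 1.97 and adjusted p of 8.59e-10 to 0.0421. It was 1.97 without control 1 and 1.79 without Ets1 eKO 2. In vEndo-like cells Sema5a stood at 40.6 and 17.2 CPM in controls, against 33.1 and 22.6 CPM in eKO libraries, which overlap. The effect differed between vEndo-like and mEndo-like cells by -1.72 (SE 0.35, edgeR adjusted p = 0.0166), a difference that lost its call without control 1 (-1.23, edgeR adjusted p = 0.470) and under the looser gate (-1.34, edgeR adjusted p = 0.0560), and kept it without Ets1 eKO 2 (-1.62, edgeR adjusted p = 0.0155), within a range of 0.000328 to 0.470 over the alternatives.

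Some markers of several cell types were called up beside Sema5a. The 8 mesenchyme markers summed to 540 and 525 CPM in mEndo-like controls and 814 and 772 CPM in eKO libraries, led by Col3a1, with 8 tested, 3 up and none at 0. The 4 markers of Tcf21-type fibroblasts, of which Lum, Dcn and Pdgfra are also among those 8, summed to 26.7 and 23.2 CPM against 89.4 and 82.6 CPM, led by Lum, with 3 tested and 2 up. Pdgfra itself was at 7.51 and 5.46 CPM against 6.97 and 5.50 CPM, and Tcf21 at 0.626 and 0.166 CPM against 0.148 and 0.939 CPM. Those called up were Lum at 8.88 and 7.78 CPM against 54.3 and 48.3 CPM, Dcn at 9.63 and 9.77 CPM against 28.03 and 27.9 CPM and Col1a2 at 31.9 and 29.1 CPM against 176 and 138 CPM. These genes thus moved while Pdgfra and Tcf21 overlapped. The 4 cushion markers summed to 15.4 and 14.9 CPM against 22.4 and 22.3 CPM, led by Cthrc1, with 3 tested, 1 up (Cthrc1) and none at 0. Other lists were read as well, and the sums themselves were not tested. The 7 coronary markers summed to 106 and 104 CPM against 145 and 185 CPM, led by Tcf15, with 5 tested and 1 up (Fabp4), and the 6 vessel mural markers to 44.4 and 39.6 CPM against 60.96 and 56.6 CPM, led by Pdgfrb, with 3 tested and 1 up (Abcc9). The 4 lymphatic markers summed to 75.2 and 79.8 CPM against 124 and 88.96 CPM, led by Lyve1, with 3 tested, 1 up (Lyve1) and 1 down (Flt4). The 8 cardiomyocyte markers summed to 1037 and 568 CPM against 993 and 1243 CPM, which overlap, led by Tpm1, with 8 tested and 1 up (Tnni1). The 3 venous markers went the other way, at 575 and 515 CPM against 430 and 438 CPM, led by Nr2f2, with 3 tested and 0 called. No marker of these lists was at 0. Sema5a is abundant in both kinds of mesenchyme, at 149 ± 9.22 CPM in fibroblast-like and 143 ± 18.5 CPM in cushion-like cells. The part of other cells in the Sema5a result was not tested.

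**Figure D5:**
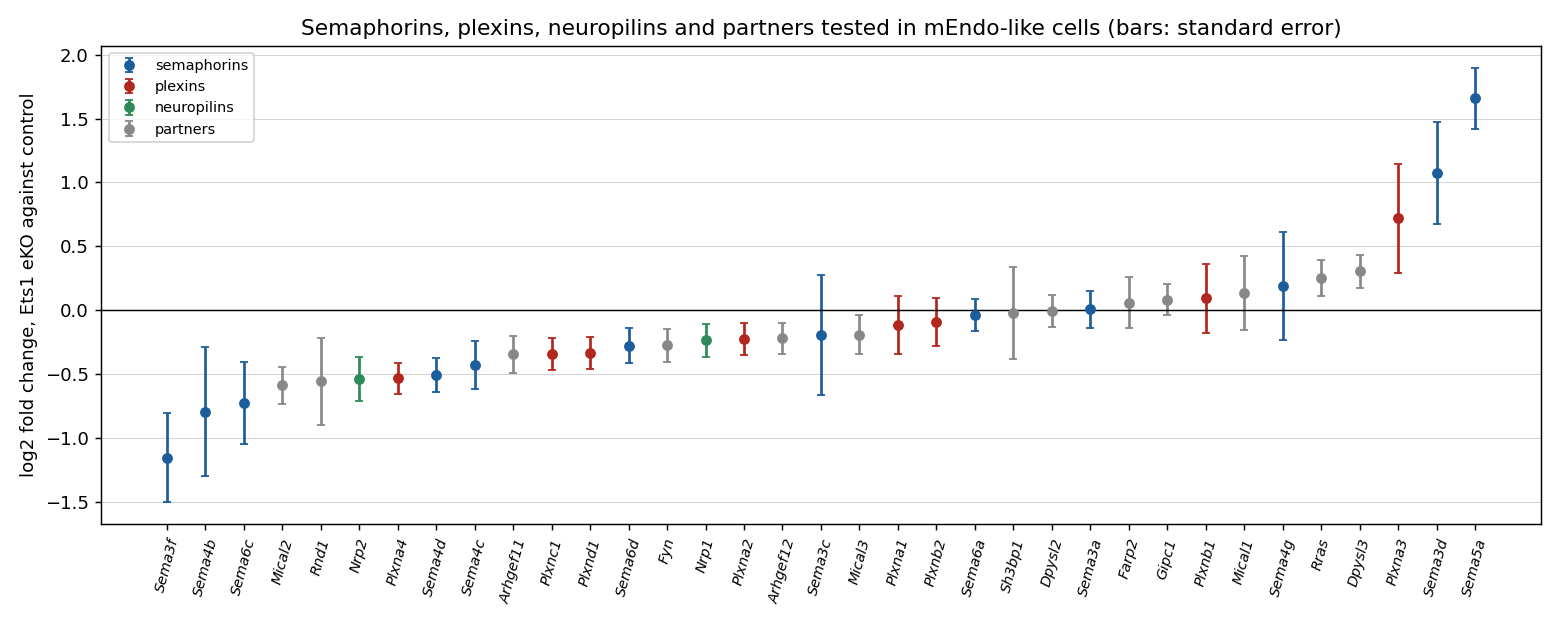
Log2 fold change of Ets1 eKO against control (vertical axis) for the 35 genes of the wider list tested in mEndo-like cells, in order of size, with bars for 1 standard error and colours for semaphorins, plexins, neuropilins and partners. Sema5a, at 1.66, is the only gene past the threshold.

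Nrp2, the co-receptor of several secreted semaphorins, was singled out after its values were seen. In vEndo-like cells it stood at 41.4 CPM in control 1 (51 UMIs), 42.5 in control 2 (47 UMIs), 14.6 in Ets1 eKO 1 (15 UMIs) and 12.9 in Ets1 eKO 2 (12 UMIs). The eKO libraries were far below the controls, with a log2 fold change of -1.57 (SE 0.29) and an edgeR adjusted p of 0.0503, just above the threshold. The adjusted p ran from 0.000265 to 0.468 over 11 alternatives, of which 6 passed, and DESeq2 gave the highest. In mEndo-like cells Nrp2 stood at 40.3 and 38.6 CPM in controls, against 30.7 and 21.9 CPM in eKO libraries (log2 fold change -0.54, SE 0.17, edgeR adjusted p = 0.132, with 0.0275 to 0.399 over the alternatives, 4 of 12 past the threshold), and in cvEC-like cells at 236 and 236 CPM against 177 and 150 CPM (log2 fold change -0.45, SE 0.14, edgeR adjusted p = 0.249, with 0.0166 to 0.681 over the alternatives, 1 of 12 past the threshold). Nrp2 was the lower of the 2 neuropilins in each class, and Nrp1 in mEndo-like cells was at 490 and 507 CPM against 403 and 417 CPM (log2 fold change -0.23, SE 0.13, edgeR adjusted p = 0.354).

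For each member the 3 genes with the most similar pattern were found by Pearson correlation of log2(CPM + 1) over 32 sums (8 classes in 4 libraries) among 11507 genes. Sums of the same library or class are not independent, so no p is given. Sema3a was most like Gsta4 (r = 0.94), Lrig1 and Agap1. Sema3c was most like Baiap2l1 (r = 0.93), Cxadr and Slc4a4, and Sema3d was most like Plekhh2 (r = 0.97), Tafa2 and Wnt5b. Sema3g was most like Mgll (r = 0.90), Depp1 and Ptp4a3, and Sema6d was most like Nectin2 (r = 0.92), Cd200 and Prrg3. Plxnd1 was most like Pecam1 (r = 0.97), a pan-endothelial adhesion molecule that was also a gate marker, followed by Ets2 and Arap3. Plxna2 was most like Tmem44 (r = 0.92), Pitpnm2 and Gask1b, and Plxna4 was most like Usp53 (r = 0.91), Ppl and Myrip. Between members, the highest correlation was that of Sema3c with Sema3d (r = 0.77) and the lowest that of Sema3c with Plxnd1 (r = -0.81).

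Sema3a, Sema3c and Sema3d lie on chromosome 5 within 5.35 Mb of each other (GENCODE vM21, build GRCm38), Sema3d at chr5:12383385-12588948, Sema3a at chr5:13125414-13602565 and Sema3c at chr5:17574281-17730268, all on the plus strand. Their levels did not follow this order: among the 9 classes, Sema3c and Sema3d were highest in the epicardium and Sema3a in the endocardium. Trabecular cardiomyocyte-like cells, a part of 1 class, held Sema3a at a level like that of the endocardium. Plxnd1 (chr6:115954811-115995005) and Plxna4 (chr6:32144268-32588192) are on the minus strand of chromosome 6. Plxna4 is overlapped on the other strand by Plxna4os1, Plxna4os2 and Plxna4os3. These had low counts beside it, with mean levels of 1.81, 0.168 and 1.94 CPM in mEndo-like cells against 172 CPM for Plxna4, and at most 17.1 CPM in any epicardial-like library. In cvEC-like cells Plxna4os1 stood at 4.97 CPM against 38.5 CPM for Plxna4. How reads shared by overlapping genes were counted is not given in the sources used here.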

How the data were processed

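The authors deposited filtered matrices of UMI counts per gene and cell for 4 libraries, made per the labels with Cell Ranger 7.1.0 on mm10 (Seurat 4.3.0 served their later steps). Whether intronic reads were counted is not given in the sources used here.

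Cells with 200 to 7000 genes and at most 20% mitochondrial, 35% ribosomal and 2% hemoglobin UMIs were kept. No doublet caller was run, and 1993 cells past several lineage lists were left out, as were 1481 past none. Thresholds were set on the pooled distributions of marker shares, from 4 (cushion mesenchyme) to 100 (cardiomyocytes) per 10000 UMIs, with at least 3 marker UMIs of 2 genes. Vessel mural-like cells (37 in the smallest library) and 18 neural crest-like cells were not tested.

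Counts summed per library and class were tested with edgeR 4.0.16 (R 4.3.3, limma 3.58.1; TMM, filterByExpr, quasi-likelihood F-test, Benjamini-Hochberg over all genes tested in the class, threshold 0.05). DESeq2 1.42.0 was an alternative, as were other scalings, filters, gates, a replicate block and each library left out. The scripts were tested on simulated counts of 12812 mEndo-like genes, where edgeR recovered 75% of changes of 1 and 97% of changes of 2 on the log2 scale. For changes of 1 it recovered 67% in cvEC-like cells and 40% as a difference of effects between these classes. Every gene was simulated with the same dispersion (spread between libraries beyond counting error), and changes were placed only on genes above a floor of mean UMIs. These shares therefore do not give the power for genes with few UMIs or with a larger spread. Named genes were the members, Ets1, genes of the wider list past the threshold in an endothelial class, the most abundant semaphorin, plexin and neuropilin of each class, the 3 genes most like each member, and Nrp2, which met none of these rules and was added after its values were seen. The members and lists were chosen with earlier results of these data known.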

Additional observations from a re-analysis of the deposited data

Results flagged for a closer look

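The effect on Sema5a differed between endothelial classes by the test of the difference itself. It was -1.72 on the log2 scale (SE 0.35, edgeR adjusted p = 0.0166) for vEndo-like minus mEndo-like cells, and lost its call without control 1 (-1.23, edgeR adjusted p = 0.470) and under the looser gate (-1.34, edgeR adjusted p = 0.0560), with 0.000328 to 0.470 over the alternatives. Sema5a was up in mEndo-like cells (1.66) and its groups overlapped in vEndo-like cells (-0.04). The vEndo-like value reached -0.78 over the alternatives and ran from -0.52 to 0.72 with a library left out. For cvEC-like minus mEndo-like cells the difference was -1.51 (SE 0.55, edgeR adjusted p = 0.217), and leaving out 1 library gave -2.27 to -0.97. The summed mesenchyme markers, which rose in mEndo-like eKO libraries, were 795 and 777 CPM in vEndo-like controls and 666 and 641 CPM in vEndo-like eKO libraries, led by Col3a1, with 7 of 8 tested, 1 up and none at 0. The marker that rose was Col1a2, at 21.9 and 24.4 CPM against 62.3 and 65.6 CPM, and it also rose in mEndo-like cells. The part of these markers in the difference was not tested.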

How the results depend on the processing

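The log2 fold changes were recomputed under 12 alternatives (fewer where a gene lost its value under a filter), and those of Ets1, Sema5a and Nrp2 in the endothelial classes, with Ets1 also in cushion-like cells. Of 715 recomputed log2 fold changes, 637 kept their direction and side of the threshold, 34 came to pass it, 2 no longer passed and 42 changed sign. Of 225 differences of the effect, 199 kept both and 22 changed sign. The cause was not tested. In mEndo-like cells Sema3c, Sema3d and Sema3g had 3 to 25 UMIs per library.

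The number of members called in mEndo-like cells was 1 instead of 0 with DESeq2, total count scaling, no filter, the replicate block and the crossed replicate block, and 0 to 1 with a library left out. It was 1 in vEndo-like cells with no filter and the crossed block (0 to 1 with a library left out), and 3 instead of 1 in cushion-like cells with no filter and the crossed block (0 to 1). With a library left out it was 0 to 2 in cvEC-like and cardiomyocyte-like cells and 0 to 1 in fibroblast-like and immune-like cells. The members with a different effect in cvEC-like and mEndo-like cells numbered 1 with no filter and 0 to 1 with a library left out. These fits also called other shares of all genes. In mEndo-like cells the share was 2.37% with DESeq2, 2.68% with total count scaling, 5.06% with no filter, 6.96% with the replicate block and 7.06% with the crossed block, against 2.3%, in vEndo-like cells 0.82% with no filter and 2.01% with the crossed block, against 0.222%, and in cushion-like cells 2.87% and 3.98%, against 0.361%. With a library left out it was 2.48% to 5.38% in mEndo-like, 0.454% to 0.624% in vEndo-like, 1.28% to 7.71% in cvEC-like, 0.303% to 1.16% in cushion-like, 0.159% to 10.3% in cardiomyocyte-like, 0% to 1.4% in fibroblast-like and 0.198% to 1.33% in immune-like cells. For cvEC-like minus mEndo-like cells it was 1.63% with no filter and 0.897% to 2.74% with a library left out, against 1.6%. Where leaving 1 out left a group with 1 library, that library was assumed to vary like the other group.

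The replicate numbers only name the libraries: deviations of same-numbered libraries correlated at -0.17 (cardiomyocyte-like) to -0.05 (mEndo-like) over genes. With the replicate number as a block, edgeR called 894 genes instead of 295 in mEndo-like cells, 10 instead of 21 in vEndo-like, 272 instead of 82 in cvEC-like, 123 instead of 47 in cushion-like, 156 instead of 0 in cardiomyocyte-like and 8 instead of 0 in fibroblast-like cells, 38 instead of 22 in epicardial-like and 34 instead of 11 in immune-like cells. The crossed replicate block, chosen after seeing the data, called 907, 190, 311, 519, 25, 533, 82 and 14 genes in the same classes.

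Signs changed for values that had not passed. Sema3a in mEndo-like cells was -0.041 with total count scaling, -0.00086 with no filter, -0.0070 with the replicate block, -0.0085 with the crossed block and -0.0086 with the stricter gate. Sema6d in vEndo-like cells was -0.0215 with total count scaling, -0.021 with no filter and -0.0016 with the replicate block. Sema5a in vEndo-like cells was 0.00077 with the crossed block. With the stricter gate, vEndo-like cells gave -0.34 for Sema3a, -0.32 for Plxnd1 and 0.25 for Plxna2, and fibroblast-like cells 0.11 for Sema3c. Differences for cvEC-like minus mEndo-like cells became 0.42 and 0.29 for Sema3d (stricter and looser gate) and -0.058 for Plxna4 (stricter). For vEndo-like minus mEndo-like cells they became -0.37 for Sema3a (stricter) and -0.15 for Plxna2 (looser), and for vEndo-like minus cvEC-like cells -0.20 for Plxnd1 (stricter) and -0.033 and -0.18 for Plxna2 (no filter, looser gate).

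With each library left out, log2 fold changes ran from -0.21 to 0.19 for Sema3a, -0.52 to 0.39 for Sema3c in mEndo-like cells. In vEndo-like cells they ran from -0.014 to 0.39 for Sema3a, -0.14 to 0.12 for Sema6d, -0.28 to 0.43 for Plxnd1, -0.58 to 0.42 for Plxna2 and -0.52 to 0.72 for Sema5a. In cvEC-like cells they ran from -0.27 to 0.035 for Plxnd1, -0.28 to 0.014 for Plxna2 and -0.34 to 0.49 for Sema5a. In cardiomyocyte-like cells the ranges were -0.35 to 0.15 for Sema3a, -0.31 to 0.71 for Plxnd1 and -0.25 to 0.0195 for Plxna2. In epicardial-like cells they were -0.13 to 0.36 for Sema3a, -0.13 to 0.40 for Sema3d and -0.36 to 0.011 for Sema6d. Sema3c ran from -0.19 to 0.46 in cushion-like and -0.66 to 0.63 in fibroblast-like cells, and Sema6d from -0.72 to 0.15 in immune-like cells. Differences for cvEC-like minus mEndo-like cells ran from -0.057 to 0.23 for Plxna2, -0.11 to 0.29 for Sema6d and -0.091 to 1.02 for Sema3g. For vEndo-like minus mEndo-like cells they ran from -0.30 to 0.60 for Plxna2 and -0.0017 to 0.83 for Plxnd1. For vEndo-like minus cvEC-like cells they ran from -0.44 to 0.52 for Plxna2, -0.11 to 0.48 for Plxnd1, -0.055 to 0.42 for Sema6d and -1.04 to 1.03 for Sema5a.

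Other values kept their sign but moved by more than a factor of 1.5 with a library left out. For Sema3a they ran from 0.41 to 0.79 in cvEC-like and -1.11 to -0.23 in fibroblast-like cells, for Sema3c from -0.91 to -0.16 in cardiomyocyte-like and -0.33 to -0.028 in epicardial-like cells, and in cardiomyocyte-like cells from -0.36 to -0.037 for Sema3d and -0.88 to -0.35 for Sema3g. For Sema6d they ran from -0.39 to -0.13 in mEndo-like, -0.29 to -0.080 in cvEC-like, -0.55 to -0.16 in cardiomyocyte-like, -0.62 to -0.19 in fibroblast-like and -0.20 to -0.030 in cushion-like cells. For Plxnd1 they ran from -1.03 to -0.33 in fibroblast-like and -0.52 to -0.11 in cushion-like cells. For Plxna4 they ran from -0.53 to -0.19 in cvEC-like, -0.56 to -0.18 in cardiomyocyte-like and -0.47 to -0.068 in fibroblast-like cells. They also ran from -0.41 to -0.16 in epicardial-like and -0.87 to -0.00052 in immune-like cells. For Nrp2 they ran from -0.79 to -0.32 in mEndo-like cells. Differences for cvEC-like minus mEndo-like cells included 0.203 to 0.995 for Sema3a, 0.055 to 0.26 for Plxna4 and -2.27 to -0.97 for Sema5a.

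Of 144 recomputed shares, 104 stayed within 1 SD of the thinned value and 40 did not, 20 of them before thinning and 16 at 1000 UMIs per cell.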
